A study of Mus musculus with 2 samples.

Results

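The 5 genes described here, Ms4a4c, Ms4a6b, Ms4a6c, Ms4a6d and Ms4a7, were the members named for this account out of 19 genes of the Ms4a family in a feature list of 31053 mouse genes. The list gives their Ensembl identifiers as ENSMUSG00000024675, ENSMUSG00000024677, ENSMUSG00000079419, ENSMUSG00000024679 and ENSMUSG00000024672, in that order. They were followed in single cells of 2 libraries joined in 1 matrix, after cells with fewer than 200 detected genes or more than 20% mitochondrial UMIs (unique molecular identifiers, each standing for a captured RNA molecule) were left out. This kept 3406 cells of library 1 and 1922 cells of library 2, holding 25766058 and 20282053 UMIs. Cells with at least 2 UMIs of Mrc1 and at least 2 UMIs of Pf4, a pair of genes typical of macrophages at the borders of the brain, served as a contrast. There were 26 such cells in library 1 and 0 in library 2, and all further cells are called the other cells, 3380 in library 1 and 1922 in library 2.

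The study sorted cells from tissue around the cribriform plate of wild-type C57BL/6J female mice aged 10 weeks, including olfactory bulb and pieces of nasal mucosa. Podoplanin- and CD31-positive, CD45-negative living cells were taken from 5 healthy mice, pooled, and from 5 mice with experimental autoimmune encephalomyelitis (EAE, an induced inflammatory disease of the central nervous system), also pooled. Each condition is thus 1 sample, and no source used here ties the barcode suffixes 1 and 2 of the matrix to the conditions. Accordingly the libraries are called 1 and 2, no value is assigned to health or EAE, and a difference between them is a difference between a pair of libraries without replicates. No test was made, and every interval below is a 95% interval that covers counting error only.

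The labelled cell type was lymphatic endothelium, but most cells carried microglial transcripts. Of the other cells, 3231 in library 1 and 1635 in library 2 had at least 5 of 7 homeostatic microglia markers (such as P2ry12, Tmem119 and Cx3cr1), and this list summed to 17576 and 9177 CPM (UMIs per 1000000 UMIs of the same cells) in libraries 1 and 2. The 6 lymphatic endothelial markers summed to 27.7 and 6.90 CPM. The median kept cell had 7334 UMIs in library 1 and 9782 in library 2, and 1.54% and 3.74% of its UMIs were mitochondrial. Immediate early and heat shock genes (11 genes, including Fos, Atf3 and Hspa1a) came to 43288 CPM in all in library 1, against 14059 CPM in library 2, and their part in the results was not tested. The libraries shared 8 barcode sequences, 7 of them among kept cells.

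Ms4a genes encode small proteins that cross the membrane 4 times and sit beside immune receptors. The best known are Ms4a1, the B cell antigen CD20, and Ms4a2, the beta chain of the high-affinity IgE receptor of mast cells and basophils. In brain macrophages the family is of interest because variants at the human MS4A locus are associated with the amount of soluble TREM2, a lipid-sensing receptor of microglia that signals through the adaptor Tyrobp. In the mouse olfactory system, Ms4a proteins are also known as chemoreceptors of the necklace neurons. Ms4a7 is widely used to separate macrophages of the brain borders or of blood origin from resident microglia, and Ms4a4c commonly appears among interferon-induced transcripts of myeloid cells.

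The family lies in a single cluster on chromosome 19 of the mouse. In the RefSeq gene table of build GRCm38.p6, Ms4a7 was followed by Ms4a4a, Ms4a4c, Ms4a4b, Ms4a6c, Ms4a6b, Ms4a4d and Ms4a6d. RefSeq promoter windows were found for 4 of the 5 members (Ms4a4c, Ms4a6b, Ms4a6c and Ms4a7). For 3 of these 4, the bases just after the start were found in the gene's longest protein-coding transcript of the GENCODE M21 annotation. Distances below count from the RefSeq start. The 250 bases before the annotated start are printed below, 5′ to 3′ on the gene's strand, because the members differed in how far they moved with interferon genes and because the starts of Ms4a6b and Ms4a6c share long stretches. In Ms4a6b and Ms4a6c the capitals mark every stretch of at least 15 bases found in both, and in Ms4a4c and Ms4a7 they mark motif matches.
Ms4a4c, chr19:11407411-11407660, plus strand: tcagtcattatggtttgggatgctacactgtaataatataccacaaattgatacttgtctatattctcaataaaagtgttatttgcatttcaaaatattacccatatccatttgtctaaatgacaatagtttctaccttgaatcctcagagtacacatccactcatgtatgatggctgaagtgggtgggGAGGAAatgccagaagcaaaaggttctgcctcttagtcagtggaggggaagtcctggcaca
Ms4a6c, chr19:11469118-11469367, plus strand: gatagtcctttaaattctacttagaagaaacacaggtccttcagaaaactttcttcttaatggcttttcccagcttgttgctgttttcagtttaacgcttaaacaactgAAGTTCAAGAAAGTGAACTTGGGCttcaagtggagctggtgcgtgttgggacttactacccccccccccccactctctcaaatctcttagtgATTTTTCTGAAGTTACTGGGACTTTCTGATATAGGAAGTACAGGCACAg
Ms4a6b, chr19:11518309-11518558, plus strand: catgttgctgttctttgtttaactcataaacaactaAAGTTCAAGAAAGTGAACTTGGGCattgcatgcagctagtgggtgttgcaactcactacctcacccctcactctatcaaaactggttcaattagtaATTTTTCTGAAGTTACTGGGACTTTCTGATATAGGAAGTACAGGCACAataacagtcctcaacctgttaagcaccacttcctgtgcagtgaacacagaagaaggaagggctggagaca
Ms4a7, chr19:11336147-11336396, minus strand: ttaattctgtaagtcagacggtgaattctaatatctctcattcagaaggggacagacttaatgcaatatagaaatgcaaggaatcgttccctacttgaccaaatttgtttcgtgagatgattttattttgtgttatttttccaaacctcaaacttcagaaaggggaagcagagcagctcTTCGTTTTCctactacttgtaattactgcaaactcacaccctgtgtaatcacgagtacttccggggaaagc

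The Ms4a6b and Ms4a6c windows held 72 bases each in shared stretches, and the longest shared run was 48 bases. It began 118 bases before the start of Ms4a6b and 49 bases before that of Ms4a6c. Between any other 2 of these 4 windows the longest shared run was 7 to 9 bases. The core of the interferon-stimulated response element, searched as GAAANNGAAA on both strands, was in none of the 4 windows and in 2.98% of all 32851 promoter windows of that length. A shortened form, GAAANNGAA, chosen after the windows had been read and contained in every match of the longer motif, was found as GAAAGTGAA in Ms4a6b (bases 206 to 198 before the start) and in Ms4a6c (bases 133 to 125). It was also found on the opposite strand in Ms4a7 (bases 71 to 63), and in 7.13% of all windows. A second RefSeq window of Ms4a7, not printed, held it once (bases 148 to 140). The core of the gamma-activated sequence, TTCNNNGAA, was in none of the 4 windows, against 7.02% of all windows. GAGGAA, a core of sites bound by the myeloid factor PU.1, was found in Ms4a4c (bases 61 to 56 before the start) and in 23.3% of all windows. A match describes letters and not a bound site.

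Across the family, RNA was found almost entirely for the 5 members. They made up 99.4% of all Ms4a UMIs in the other cells of library 1 and 99.6% in library 2. Together they reached 298 CPM in library 1, 672 CPM in library 2 and 1969 CPM in the Mrc1/Pf4-high cells. At least 1 member was detected in 80.3% of the other cells (library 1), 92.9% (library 2) and all 26 Mrc1/Pf4-high cells. UMIs were not divided by transcript length, so CPM values are compared below between cells for each gene and not ranked between genes.

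**Figure D1:**
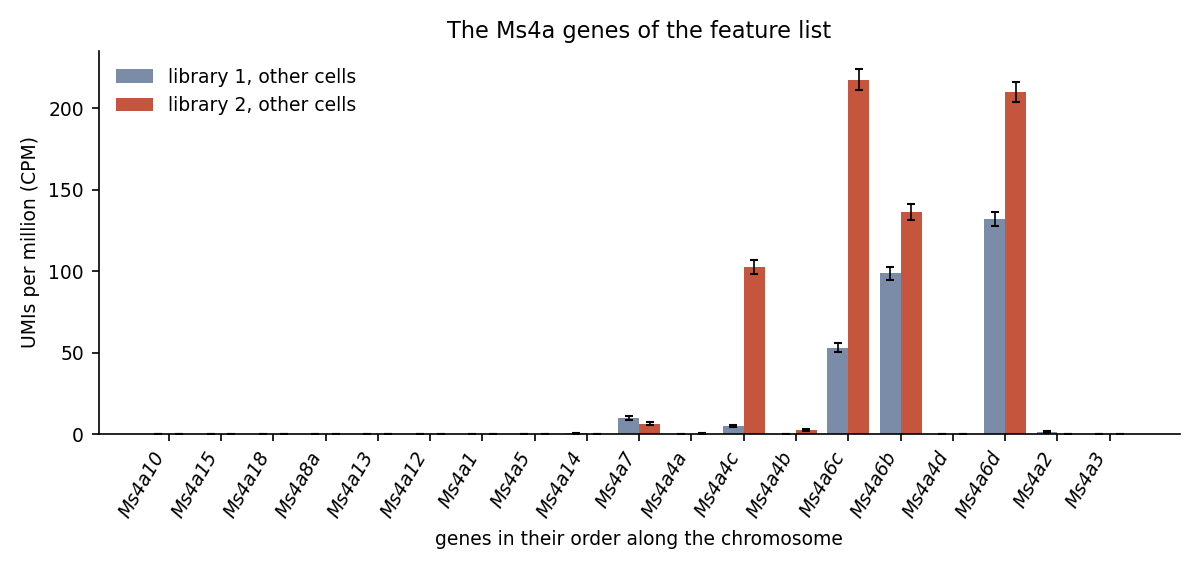
CPM (vertical axis) of the 19 Ms4a genes in their order along the chromosome (horizontal axis), in the other cells of library 1 and library 2; bars are summed levels and whiskers 95% Poisson intervals. The level is carried by a run of neighbouring genes from Ms4a7 to Ms4a6d, with silent or nearly silent genes between them, such as Ms4a4d with 0 UMIs in both libraries.

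Ms4a4c and Ms4a6c were at least 2-fold higher in library 2 than in library 1, and Ms4a6b and Ms4a6d were higher by less. Ms4a7 had a lower CPM in library 2 but was detected in a larger share of its cells before thinning and at 3000 UMIs per cell. No order is read from it. Folds were read as log2 ratios after 10 CPM had been added to both sides, and called from a ratio of 2. By this rule 2 of the 5 members were called higher in library 2 and 0 lower. Among all 13877 genes with at least 20 UMIs, 2.79% were called higher and 1.92% lower. The median log2 ratio of the members was 0.63, beside 0.02 for all those genes.

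Ms4a4c had 4.93 CPM in library 1 (95% interval 4.11 to 5.87, from 126 UMIs) and 102 CPM in library 2 (98.0 to 107, from 2075 UMIs). This is a 20.7-fold difference without added CPM and a log2 ratio of 2.91 with it (2.77 to 3.05), and 34 genes, Ms4a4c included, had a ratio at least as high. The share of other cells with a UMI of it was 2.72% in library 1 against 49.5% in library 2. When every cell was thinned to 1000 UMIs, which left out 87 and 15 shallower cells, the shares were 0.243% (0.105 to 0.478) and 8.86% (7.62 to 10.2), so the gap between libraries was present at equal depth.

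Ms4a6c had 52.9 CPM in library 1 (50.1 to 55.8, from 1351 UMIs) and 217 CPM in library 2 (211 to 224, from 4411 UMIs), a log2 ratio of 1.86 (1.75 to 1.96). Thinned to 1000 UMIs, it was found in 4.04% and 18.3% of cells. Ms4a6b, whose promoter window shares the 48-base run with that of Ms4a6c, had 98.6 CPM (94.8 to 102) and 136 CPM (131 to 141), a log2 ratio of 0.43 (0.33 to 0.53). Its thinned shares were 9.35% and 12.2% of cells. The intervals of the Ms4a6c and Ms4a6b ratios lie well apart.

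Ms4a6d had 132 CPM in library 1 (128 to 136) and 209.9 CPM in library 2 (204 to 216), a log2 ratio of 0.63 (0.54 to 0.72), and thinned shares of 12.9% and 18.6%. Ms4a7 had 10.1 CPM (8.87 to 11.4, from 257 UMIs) and 6.46 CPM (5.40 to 7.66, from 131 UMIs), a log2 ratio of -0.29 (-0.47 to -0.10). Its UMIs were spread differently. In library 1 they came from 41 of the 3380 other cells, with up to 22 in a cell, and 8 cells held at least 50% of them. In library 2 they came from 80 of 1922 cells, with at most 7 in a cell. The thinned shares of Ms4a7, 0.456% (0.255 to 0.750) and 0.367% (0.148 to 0.755), overlap. Since the count of cells with a UMI goes against the CPM, no order of the libraries is read from it.

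**Figure D2:**
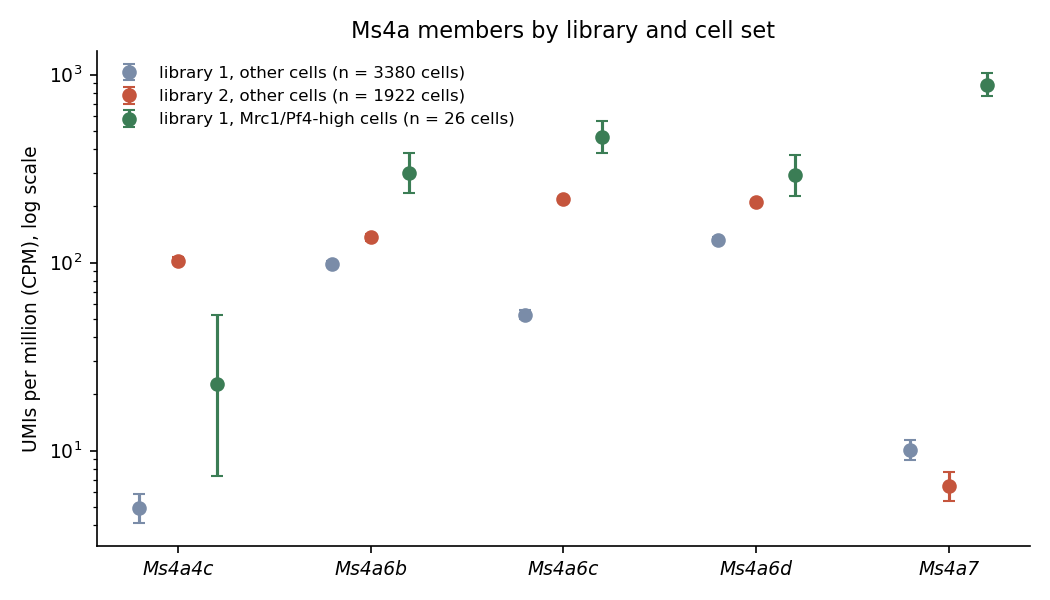
CPM (vertical axis, log scale) of the 5 members in the other cells of library 1 and of library 2 and in the Mrc1/Pf4-high cells of library 1; points are summed levels and whiskers 95% Poisson intervals. Ms4a4c stands highest in library 2 at 102 CPM, while Ms4a7 stands highest in the Mrc1/Pf4-high cells at 886 CPM.

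Within the members' own sum, the make-up shifted with these ratios. Ms4a4c made 1.65% of the members' UMIs in library 1 and 15.2% in library 2, and Ms4a6c 17.7% and 32.4%. The shares of Ms4a6d (44.2% and 31.2%) and Ms4a6b (33.0% and 20.3%) were smaller in library 2 although their CPM was higher there. Cells with UMIs of at least 4 members were 1.10% plus 0.178% (4 and 5 members) of library 1 and 26.9% plus 1.87% of library 2. At 1000 UMIs per cell, Ms4a6c and Ms4a6d occurred together in 87 of 1907 cells of library 2, 1.34 times the product of their separate shares, and the other pairs of Ms4a4c, Ms4a6b, Ms4a6c and Ms4a6d ranged from 1.14 to 1.605 times. For Ms4a4c with Ms4a6d, and for Ms4a6b with Ms4a6c or with Ms4a6d, the interval of the observed share includes the product. The cells counted include olfactory and further cells with little member RNA, and the part of these in the ratios was not tested.

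Genes tied to the family by function gave mixed values. Among 9 genes of the TREM2 axis, 1 was called higher in library 2 and 0 lower. That gene was Apoe, which encodes a lipid carrier that TREM2 binds, with 3377 CPM in library 1 and 23503 CPM in library 2. Trem2 itself had 2695 and 1632 CPM (log2 ratio -0.72), and its adaptor Tyrobp 2418 and 2116 CPM (-0.19). Among 6 Fc receptor genes, 2 were called higher: Fcgr4, an activating IgG receptor, at 14.4 and 292 CPM, and Fcgr2b, the inhibitory IgG receptor, at 202 and 516 CPM. Tmem176a and Tmem176b, which encode related 4-pass membrane proteins, were lower in library 2, with 264 against 85.0 CPM (log2 ratio -1.53) and 461 against 149 CPM (-1.57). Of 20 type I interferon response genes 18 were called higher in library 2, and of 7 homeostatic microglia genes 4 were called lower.

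Cell types that could bring Ms4a RNA with them were looked for in both libraries. Libraries 1 and 2 had 12.4 and 75.3 CPM of the 7 monocyte markers together, nearly all from Plac8. The 9 markers of border-associated macrophages summed to 338 and 185 CPM, with Cd163 at 0 in library 2. Most of this came from Maf (273 and 160 CPM), so the sums say little about such cells. In the cells with at least 5 of the 7 microglia markers, Ms4a4c had 4.82 and 99.5 CPM and Ms4a6c 53.4 and 212 CPM, about the levels of all other cells. Of 4 necklace neuron markers, Gucy2d and Cnga3 were at 0 in both libraries, while Pde2a had 39 and 14 UMIs and Car2 49 and 120 UMIs in the other cells. Olfactory neurons or ensheathing glia, which should lack these members, were used as a background for free RNA. Such cells had at least 3 markers of 1 of these types and at most 2 of the 7 microglia markers. The second condition leaves out cells with more microglial RNA, so low counts in the background cells are partly set by the choice. The 28 such cells of library 1 held 2 UMIs of all members together, and the 58 of library 2 held 6, that is 9.73 CPM in each. A UMI of any member was found in 3.57% and 5.17% of them. No UMI of Ms4a4c was found in them, which by a floor of 3 cells allows a share of cells with a UMI of up to 10.7% and 5.17%, and by the exact interval of up to 12.3% and 6.16%. These limits are on detection and not on expression. Their median depth was 4756 and 9708 UMIs.

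Mrc1/Pf4-high cells had more RNA of all 5 members than the other cells of library 1. By the 2-fold rule 5 of 5 members were called higher, where 2.72% of 12420 genes were called higher and 5.12% lower. The call of Ms4a6d ended with at least 1 UMI (log2 ratio 0.99) or at least 4 UMIs (0.87) of Mrc1 and Pf4 as the threshold, and that of Ms4a4c with the mean of per-cell CPM (0.81), each leaving 4 members called. Ms4a7 stood out in size. It had 886 CPM in these cells (766 to 1018, from 197 UMIs) against 10.1 CPM in the other cells, an 88.0-fold difference and a log2 ratio of 5.48 (5.18 to 5.77). Of all genes only Pf4, which chose the cells, had a higher ratio. In the 26 cells, Ms4a7 ranged from 0 to 22 UMIs with a median of 5.5, and it was detected in 25 of them.

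Ms4a6c followed with 468 CPM (382 to 567) against 52.9 CPM, a log2 ratio of 2.92 (2.57 to 3.26), and 0 to 11 UMIs in a cell (median 3). Ms4a6b had 301 CPM against 98.6 CPM (log2 ratio 1.52, 1.11 to 1.91), and Ms4a6d 292 CPM against 132 CPM (1.09, 0.69 to 1.48). Ms4a4c had 22.5 CPM (7.30 to 52.5) against 4.93 CPM, a log2 ratio of 1.12 (0.12 to 2.15) that rests on 5 UMIs in 2 of the 26 cells, 4 of them in 1 cell. The 3 Mrc1/Pf4-high cells that had at most 2 microglia markers held 6102 UMIs in all, so that 1 UMI is 164 CPM. They had 15 UMIs of Ms4a7, 3 each of Ms4a6c and Ms4a6d, 1 of Ms4a6b and 0 of Ms4a4c. The first 3 of these genes were called higher, where 9.13% of all genes were called higher and 49.6% lower, and 0 or 1 UMI at this depth shows no direction.

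The contrast cells were not cleanly apart from microglia. Of the 26 cells, 18 had at least 5 of the 7 microglia markers and 3 had at most 2. They formed no cluster of their own, since 9 lay in cluster 0, 6 in cluster 3 and the rest in clusters 1, 2, 4 and 7. Their border macrophage markers summed to 2689 CPM, most of it from Mrc1 and Pf4, which chose the cells. The remaining 7 markers had 791 CPM together, and 326 CPM in the other cells of library 1. Of these sums Maf made 288 and 273 CPM. The rest were higher in the contrast cells than in the other cells of library 1, from 12 to 41 UMIs of each gene. Cd163 stood at 63.0 against 0.117 CPM, Lyve1 at 54.0 against 0.509 CPM and F13a1 at 58.5 against 0.626 CPM. Clec4n had 184 against 1.53 CPM, Folr2 58.5 against 6.58 CPM and Cbr2 85.4 against 44.4 CPM. Against 1455 CPM in the other cells, P2ry12 stood at 441 CPM in the contrast cells. All 7 monocyte markers were at 0 in them, and Apoe reached 58414 CPM. In these 26 cells 1 UMI is 4.50 CPM, and the monocyte markers had 12.4 CPM in the other cells of library 1. At this depth 0 UMIs does not show a lack of monocytes. Doublets were not called, and their part was not tested. With 1 UMI more or less of a gene the choice of cells changes: 8 cells lay just inside the threshold and 20 just outside.

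Ms4a7 tracked the Mrc1 and Pf4 content of cells of library 1 also below that threshold. The 26 high cells held 43.4% of its UMIs. A further 18 cells with at least 1 UMI of each gene held 27.5%, with 0 to 22 UMIs in a cell. The 141 cells with only 1 of the 2 genes held 21.6%. The 3221 cells with neither gene held 7.49% of its UMIs (34 UMIs in 13 cells), or 1.41 CPM. For Ms4a6d the cells with neither gene held 91.2% of its UMIs, for Ms4a6b 89.6%, for Ms4a4c 83.2% and for Ms4a6c 82.5%. In library 2, with few cells holding either gene, Ms4a7 had 6.00 CPM in the 1858 cells with neither, 14.4 CPM in 62 cells with 1 of them and 3 UMIs in the 2 cells with both, which is the same direction. The cells with neither gene were 96.7% of library 2 and held 89.3% of its 131 Ms4a7 UMIs, against 94.6% of the cells and 7.49% of the UMIs in library 1.

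**Figure D3:**
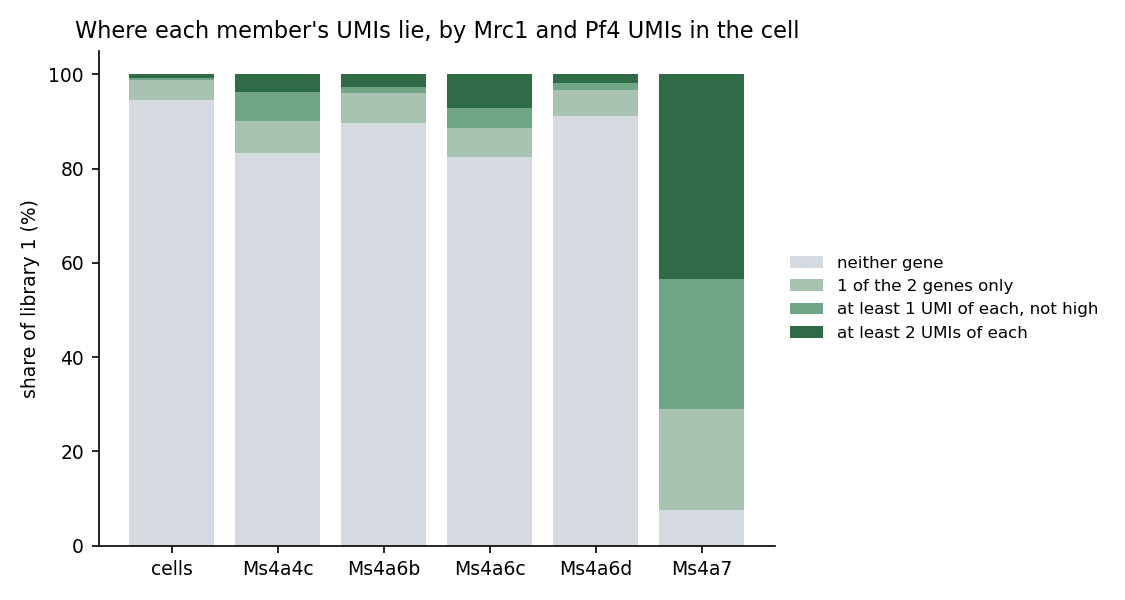
Share of the cells and of each member's UMIs in library 1 (vertical axis, percent) that fall in cells with neither Mrc1 nor Pf4, with 1 of them, with at least 1 UMI of each, or with at least 2 UMIs of each. Ms4a7 is the member whose UMIs lie mostly outside the cells with neither gene, which hold 7.49% of them.

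Cells with Ms4a7 outside the Mrc1/Pf4-high set were compared with the cells without Ms4a7 in the same library. In library 1, 24 cells with at least 3 UMIs of Ms4a7 had 87.2 CPM of Mrc1 and 168 CPM of Pf4, while 12 such cells of library 2 had 0 UMIs of both. P2ry12 had 812 CPM in these cells against 1466 CPM in cells without Ms4a7 in library 1, and 240.1 against 398 CPM in library 2. The class II gene H2-Ab1 had 486 against 56.4 CPM in library 1, and 2071 against 2162 CPM in library 2. Their Apoe levels were alike, 45943 and 47131 CPM, against 2778 and 22300 CPM in the cells without Ms4a7. Cells grouped by Ms4a7 were chosen on it, so these values only describe them. Ccr2, a monocyte marker, was at 3.11 CPM in the 24 cells of library 1 and at 0 in the 12 of library 2. Cells without Ms4a7 had 2.15 and 0.622 CPM of it. These Ccr2 values rest on too few UMIs to order the sets.

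Across the cells of each library, the members moved differently with the type I interferon response. Cells that were not Mrc1/Pf4-high were ordered by the share of their UMIs in 20 interferon-induced genes, none of them an Ms4a gene, and cut into 5 ranges of equal cell number. In library 2, Ms4a4c had 42.9, 72.8, 84.7, 104 and 204 CPM from the lowest to the highest range, so the level was higher at each step and 4.76-fold higher at the end. Ms4a6c had 124, 192, 210.4, 222 and 333 CPM (2.68-fold), and Ms4a6b 91.9, 124, 130, 152 and 179 CPM (1.95-fold), both higher at each step. Ms4a6d had 165 CPM in the lowest and 251 CPM in the highest range with a step down between, and Ms4a7 had 9.05 and 3.75 CPM. Ms4a6b and Ms4a6c thus differed here too, in the same order as between the libraries.

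In library 1, where 494 of the 676 cells of the lowest range had no interferon UMI at all, the differences lay mainly in the highest range. Ms4a4c had 1.99 CPM in the lowest and 16.3 CPM in the highest range, from 9 and 87 UMIs. Ms4a6c had 45.1 and 73.8 CPM, while Ms4a6b (99.1 and 104 CPM) and Ms4a6d (126 and 131 CPM) differed little. Ms4a7 had 0.442 and 34.8 CPM, from 2 and 186 UMIs, which is the opposite direction to library 2. The ranges of library 1 still include the 18 cells below the threshold with at least 1 UMI each of Mrc1 and Pf4. Those cells held 125 UMIs of Ms4a7, and their part in this difference was not tested. The highest range of library 1 had a median interferon share of 0.0988%, below the 0.208% of the lowest range of library 2. In those ranges Ms4a4c had 16.3 CPM in library 1 and 42.9 CPM in library 2.

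**Figure D4:**
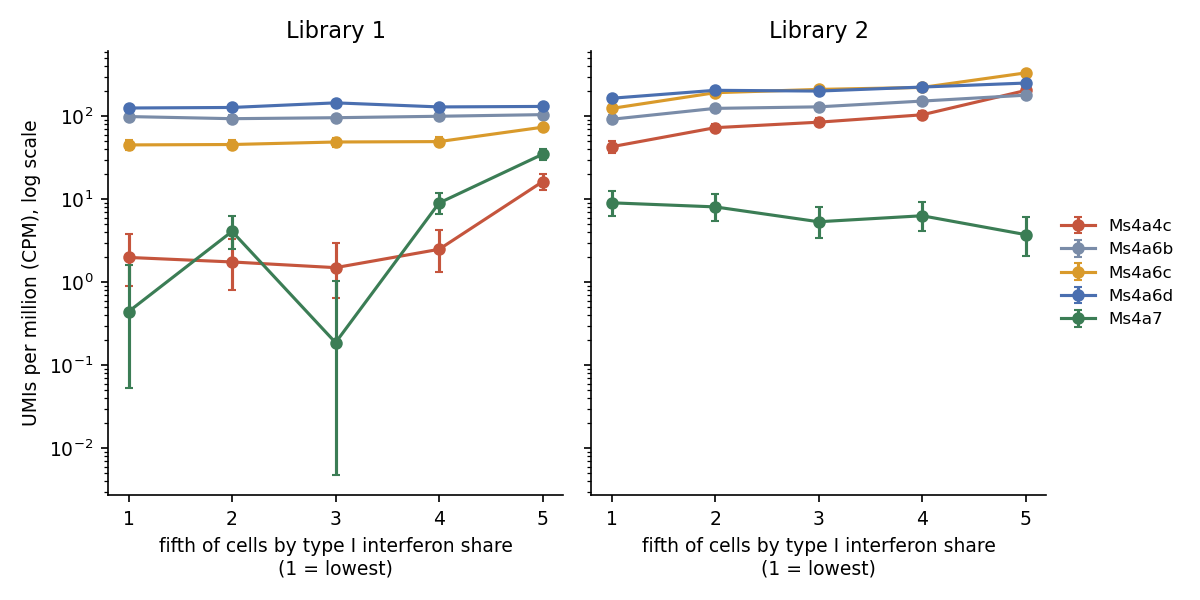
CPM (vertical axis, log scale) of each member over 5 ranges of cells ordered by their type I interferon share (horizontal axis), in library 1 (left) and library 2 (right); whiskers are 95% Poisson intervals. In library 2 Ms4a4c goes from 42.9 to 204 CPM, and in library 1 Ms4a7 goes from 0.442 to 34.8 CPM on few UMIs.

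With the homeostatic program the order was turned for some members. Cells were ranged in the same way by their share of the 7 homeostatic microglia genes. In library 1, Ms4a6b had 73.5 CPM in the lowest and 129 CPM in the highest range, and Ms4a6d 98.3 and 166 CPM, both higher at each step, as was Trem2 (2012 and 3398 CPM). Ms4a4c (14.8 and 0.910 CPM) and Ms4a7 (39.0 and 0.455 CPM) were lower in the most homeostatic cells. Ms4a6c had 54.6 CPM in the lowest and 66.6 CPM in the highest range, with steps down between. In library 2, Ms4a6c was lower at each step, from 272 to 172 CPM, and Ms4a7 went from 19.4 to 1.13 CPM, while Ms4a6b (121 and 149 CPM) and Ms4a6d (211 and 200.1 CPM) differed little. Across 5 ranges of MHC class II share in library 2, where the class II genes were abundant, Ms4a4c had 96.3 and 113 CPM and Ms4a6c 202 and 212 CPM, a smaller difference than over the interferon ranges. In library 1, Ms4a4c had 2.78 and 13.5 CPM over these class II ranges (4.87-fold) and Ms4a6c 42.4 and 61.5 CPM, higher at each step. Shares within a cell compete for the same UMIs, and the part of this in the differences was not tested.

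Clusters of cells gave a coarser view. Clustering both libraries together gave 13 clusters, most of them mainly from 1 library, and 12 sets of at least 30 cells of 1 library in 1 cluster. Among the 3 largest sets of library 2 (clusters 9, 10 and 11), Ms4a4c lay between 102 and 113 CPM, Ms4a6b between 135 and 154 CPM, Ms4a6c between 212 and 255 CPM and Ms4a6d between 211 and 224 CPM. These sets are led by lipid-handling genes such as Apoc1, by cell division genes such as Mki67, and by class II and chemokine genes such as Cxcl9, and each of these 4 members differed by less than 1.5 times among them. In library 1, clusters 0, 1, 2 and 4 had 1.80 to 3.88 CPM of Ms4a4c. Cluster 3 (80 cells), led by chemokine and interferon genes such as Cxcl10 and Rsad2 and also by Pf4 and Mrc1, had 28.6 CPM of Ms4a4c, 112 CPM of Ms4a6c and 92.4 CPM of Ms4a7. Without its 6 Mrc1/Pf4-high cells these levels were 26.5, 81.8 and 42.1 CPM. Clusters 9, 10 and 11 also held a few cells of library 1, too few to form sets. Ms4a4c had 175 CPM in the 8 of cluster 11 (22 UMIs) and 92.9 CPM in the 6 of cluster 9 (6 UMIs). In the 17 of cluster 10 it had 8.73 CPM (2 UMIs). Olfactory neurons of library 2 (cluster 8, 34 cells, led by Stoml3 and Omp) had 1 UMI of Ms4a6b and 0 of the other members.

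Cluster 7 mixed cells with blood, bone and stromal genes, such as Hbb-bs and Col1a1, and lay at a low median depth of 1342 UMIs in library 1 and 3899 in library 2. Among the sets of at least 30 cells, it had the highest Ms4a7 level of its library in both, 172 and 15.2 CPM. The former rests on 35 UMIs, 15 of them in its 3 Mrc1/Pf4-high cells. The latter rests on 9 UMIs (6.95 to 28.85 CPM), and its interval overlaps that of cluster 9 (8.23 to 15.7 CPM). Among the same sets it had the highest Ms4a6c and Ms4a6d levels of library 2, 262 and 284 CPM. The interval of this Ms4a6c level (222 to 306 CPM) overlaps that of cluster 10 (240 to 271 CPM). For Ms4a6d the intervals of clusters 7 (242 to 330 CPM) and 10 (210 to 239 CPM) do not overlap. A smaller set, the 8 cells of library 1 in cluster 11, had 223 CPM of Ms4a7 from 28 UMIs. Cluster 7 stays unnamed. Which set was highest for how many members moved with the clustering, from 2 members in this cluster to 3 members in a set of 1734 cells at resolution 0.5.

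**Figure D5:**
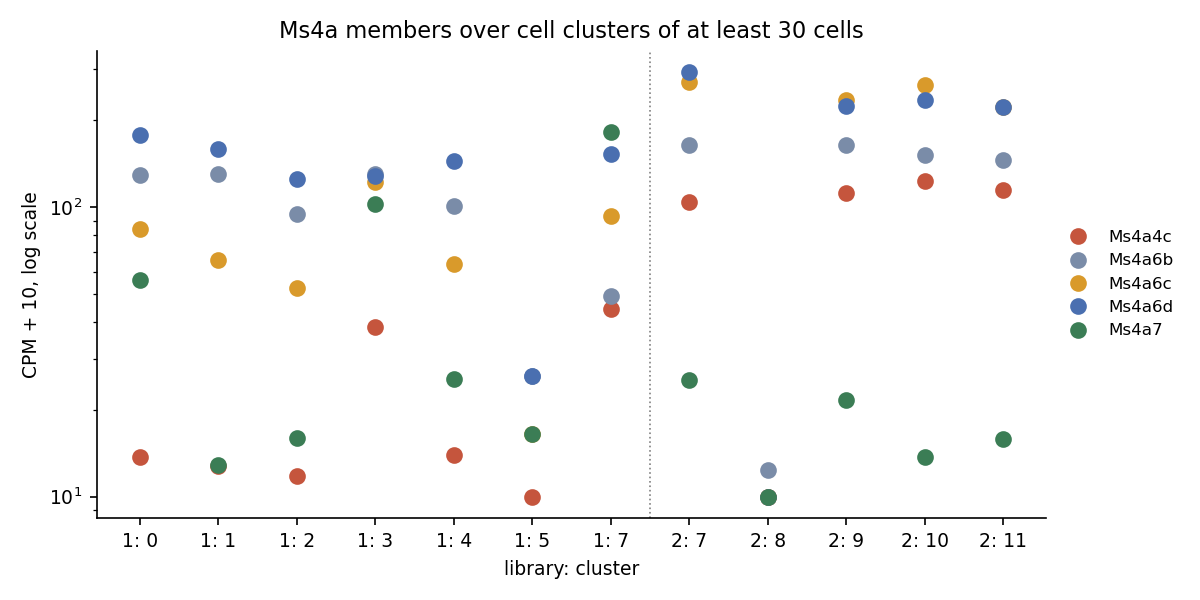
CPM + 10 (vertical axis, log scale) of each member in every set of at least 30 cells of 1 library in 1 cluster (horizontal axis, library then cluster). Genes at 0 sit at 10, as in cluster 8 of library 2. The 3 largest sets of library 2 have 102 to 113 CPM of Ms4a4c, above every set of library 1 drawn here. Sets under 30 cells are not drawn.

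Likeness to other genes was measured as Pearson's correlation of log2(CPM + 10) over these sets, 7 in library 1 and 5 in library 2, as a description only. In library 1, Ms4a7 was most like Wfdc17 (0.99), Mrc1 (0.98) and Rftn1 (0.97), over 8055 candidate genes. Ms4a4c was most like Ppp1r8, Ifit1 and Tsga10, Ms4a6c most like Psmb8, Gbp7 and Coro7, Ms4a6b most like Ncaph, Slc12a9 and Rnaset2b, and Ms4a6d most like Snx6, Itga6 and Selenop. In library 2 the nearest genes were Gnai2, Ly6e and Lap3 for Ms4a4c, Gngt2, Reep5 and Zbp1 for Ms4a6c, Fcgrt, Rgs10 and Yeats4 for Ms4a6b, Aif1, Tor2a and Arpc1b for Ms4a6d, and Bud13, Mettl7a1 and Blvra for Ms4a7. With so few sets, 1 of them olfactory neurons with almost no member RNA, values near 1 are common, and the sets share a library and its depth. Over the 7 sets of library 1, Ms4a7 and Ms4a4c had a correlation of 0.91 and Ms4a7 and Ms4a6b one of 0.03.

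The other 14 family members were nearly silent, and those with at least 20 UMIs were 2. Ms4a4b, the neighbour of Ms4a4c, had 1 UMI in library 1 and 49 in library 2, or 2.42 CPM (1.79 to 3.19), in 42 cells of clusters 7, 9, 10 and 11. The longest transcripts of Ms4a4b and Ms4a4c share a run of 127 bases in the GENCODE M21 annotation, and 8.01% of the 50-base words of Ms4a4c occur in Ms4a4b, so reads from the shared part could be counted for either gene or dropped. Ms4a6b shares runs of 96 bases with Ms4a6c and 81 with Ms4a6d, with 4.14% and 1.52% of its words. Ms4a7 shares no run over 12 bases with any other member or with Ms4a4a, Ms4a4b and Ms4a4d. Ms4a2 had 34 UMIs in library 1, 31 of them in 9 cells of cluster 6, which were led by genes such as Cd200r3, Fcer1a and Mcpt8 of basophils, and 0 in library 2. Ms4a14 had 7 UMIs in 7 of the 26 Mrc1/Pf4-high cells and 10 in the 3380 other cells of library 1, and Ms4a4a 3 and 2. These last counts are named after their values were seen. Ms4a1 had 1 UMI in each library.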

How the data were processed

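Single cells of 2 pooled samples were read from the deposited matrix of UMI counts, whose header gives software version 3.1.0 and no tool name. Per the submitters' processing notes, Cell Ranger, bcl2fastq and UMI-tools were used. The genome build and aligner settings were not given in the sources used here. Cells under 200 genes or over 20% mitochondrial UMIs were removed, with no doublet caller. Counts were summed over cells of each library and divided by their total UMIs (CPM), with exact Poisson intervals, and shares of cells have exact Clopper-Pearson intervals. With 1 library per condition no test was made. Log2 ratios add 10 CPM, and a difference of at least 2-fold was called. Clusters used Scanpy 1.11.5 (2000 variable genes, 30 components, 15 neighbours, Leiden resolution 1). Promoter sequences came from RefSeq, GRCm38.p6. The calling of ratios was tested on simulated counts. Named genes were the 5 members, family genes with at least 20 UMIs, the marker genes Mrc1, Pf4, P2ry12, Tmem119, Trem2, Tyrobp, Tmem176a and Tmem176b, and for each member the 3 most alike genes. Members and lists were chosen with earlier results of these data known. Alternatives were other cell filters, an added 1 CPM, other totals, cell sets, thresholds, resolutions and thinning depths.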

Additional observations from a re-analysis of the deposited data

How the results depend on the processing

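Of 20 counts recomputed under alternatives, 19 stayed within 1.5 times of the reported count, 3 of them with 4 of 5 members called in Mrc1/Pf4-high cells. The exception, chosen after seeing the data, used only the 3 Mrc1/Pf4-high cells with at most 2 microglia markers: 3 members were then called in place of 5, and the log2 ratio of Ms4a4c was -0.58, a value set by 0 UMIs and the added 10 CPM. The Ms4a4c ratio between libraries ranged from 2.74 to 4.12 and that of Ms4a6c from 1.77 to 2.02. The Ms4a7 ratio in Mrc1/Pf4-high cells ranged from 5.13 to 6.94. Shares of cells with a UMI depend on depth: for Ms4a4c in library 2 the share was 8.86% at 1000 UMIs, 22.0% at 3000 UMIs and 49.5% with all UMIs. With 1 library per condition, spread between animals was not measured. No paired analysis was possible because the result comes from no test and each group is 1 sample.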
